A study of Homo sapiens with 2 samples.

Results

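Kinesin genes, CENP genes and 13 named genes of the spindle checkpoint, the mitotic kinases and their substrates were followed on expression arrays of human esophageal squamous carcinoma cells given the transcription factor SOX17. A gene was a member when its symbol in GEO's annotation of the array was KIF with digits and at most 1 final letter, was CENP with letters, or was TTK, BUB1, BUB1B, BUB3, MAD2L1, MAD1L1, AURKA, AURKB, PLK1, PTTG1, NDC80, NUF2 or CDC20. The array held 69 such genes among 19775, with 140 probe sets that were paired with 1 gene each. Of the 69, 38 were kinesins, 18 were CENP genes and 13 were the genes chosen by name.

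The study set KYSE170-luc cells that had received a SOX17 plasmid against KYSE170-luc cells that had received an empty vector, 12 h after transfection. KYSE170-luc is an established esophageal squamous carcinoma line, with luciferase per the series title. There was 1 Affymetrix array for SOX17 and 1 for the empty vector, so no difference below has a replicate check, no p-value was computed, and all values describe these 2 cultures of 1 cell line. The labels do not state what share of the cells took up a plasmid.

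Kinesins are motor proteins that move along microtubules, or take them apart, with the energy of ATP. Some build and order the mitotic spindle, and others carry vesicles, mitochondria and other cargo in cells that do not divide as well. Many CENP proteins mark the centromere or form the inner part of the kinetochore. Spindle microtubules end on the kinetochore, where the NDC80 complex makes the contact. The spindle checkpoint, with TTK, BUB1, BUB1B and MAD2L1, holds back CDC20, the activator of the anaphase-promoting complex, until every chromosome is attached. Most genes of the spindle are transcribed late in the cell cycle, so their RNA in a culture goes with the share of cells in G2 and mitosis. In bulk RNA, fewer cells in that phase and less RNA per cell cannot be told apart.

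Both arrays carried intensities on a linear scale that the authors had scaled to a common mean. A probe set counted as measured when neither array read less than an intensity of 94.6, the floor, and the probe set with the highest average log2 intensity stood for its gene. By this rule 53 of the 69 members and 10043 of all 19775 genes were measured. Log2 ratios are given as SOX17 over empty vector, so that positive ones mean a brighter signal on the SOX17 array. Their error was taken from genes with several measured probe sets, by how far the ratios of a pair lay apart. The SD of 1 log2 ratio was 0.28 over 4581 genes. Split by level, it was 0.36 for the dimmest tertile, 0.26 for the next and 0.17 for the brightest. The spread between cultures is not part of this error. Both SOX17 probe sets lay below the floor, at intensities of 83.8 and 6.5 on the SOX17 array, against 4.5 and 19.1 on the empty vector array, so they leave the labels unchecked. Of 10 epithelial markers listed for squamous cells, CDH1 and EPCAM among them, 8 had a probe set of their own (TP63 and KRT6A had none). All 8 were measured, against 0 of 3 leukocyte, 0 of 4 endothelial and 1 of 6 fibroblast markers (COL1A1). On the SOX17 array KRT5 read 273 and COL1A1 845. For the poly-A controls, which enter the RNA ahead of labelling, 24 of 24 probe sets read higher on the SOX17 array (median log2 ratio 0.57), and their part in the results was not tested.

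The median ratio of the members lay near 0. Single members went both ways, and 49.1% of them lay within 1 SD of 0 for their level, against 60.6% of all measured genes. Of the 53 measured members 32 had a higher intensity on the SOX17 array (60.4%), where 54.6% of all measured genes did. Their median log2 ratio was 0.07, against 0.03 over all measured genes. At 1.5-fold 5 members were higher (9.43%, against 3.77% of all measured genes) and 2 were lower (3.77%, against 3.2%). The 5 were the transport kinesin KIF13B, the centromere genes CENPT and CENPB, and the mitotic kinesins KIF20B and CENPE. The 2 were the transport kinesin KIF5B and the centromere gene CENPX. KIF5B was no longer 1.5-fold lower after quantile normalization (log2 ratio -0.57) or with the mean over its probe sets (-0.44), and with such means KIF21A was (-0.80). No measured member was 2-fold higher or 2-fold lower on the SOX17 array by its representative probe set, where 0.418% and 0.339% of all measured genes were. Another measured probe set of KIF21A was 2.66-fold lower. One of KIF1C, below the floor on the SOX17 array only, was at least 2.41-fold lower.

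**Figure D1:**
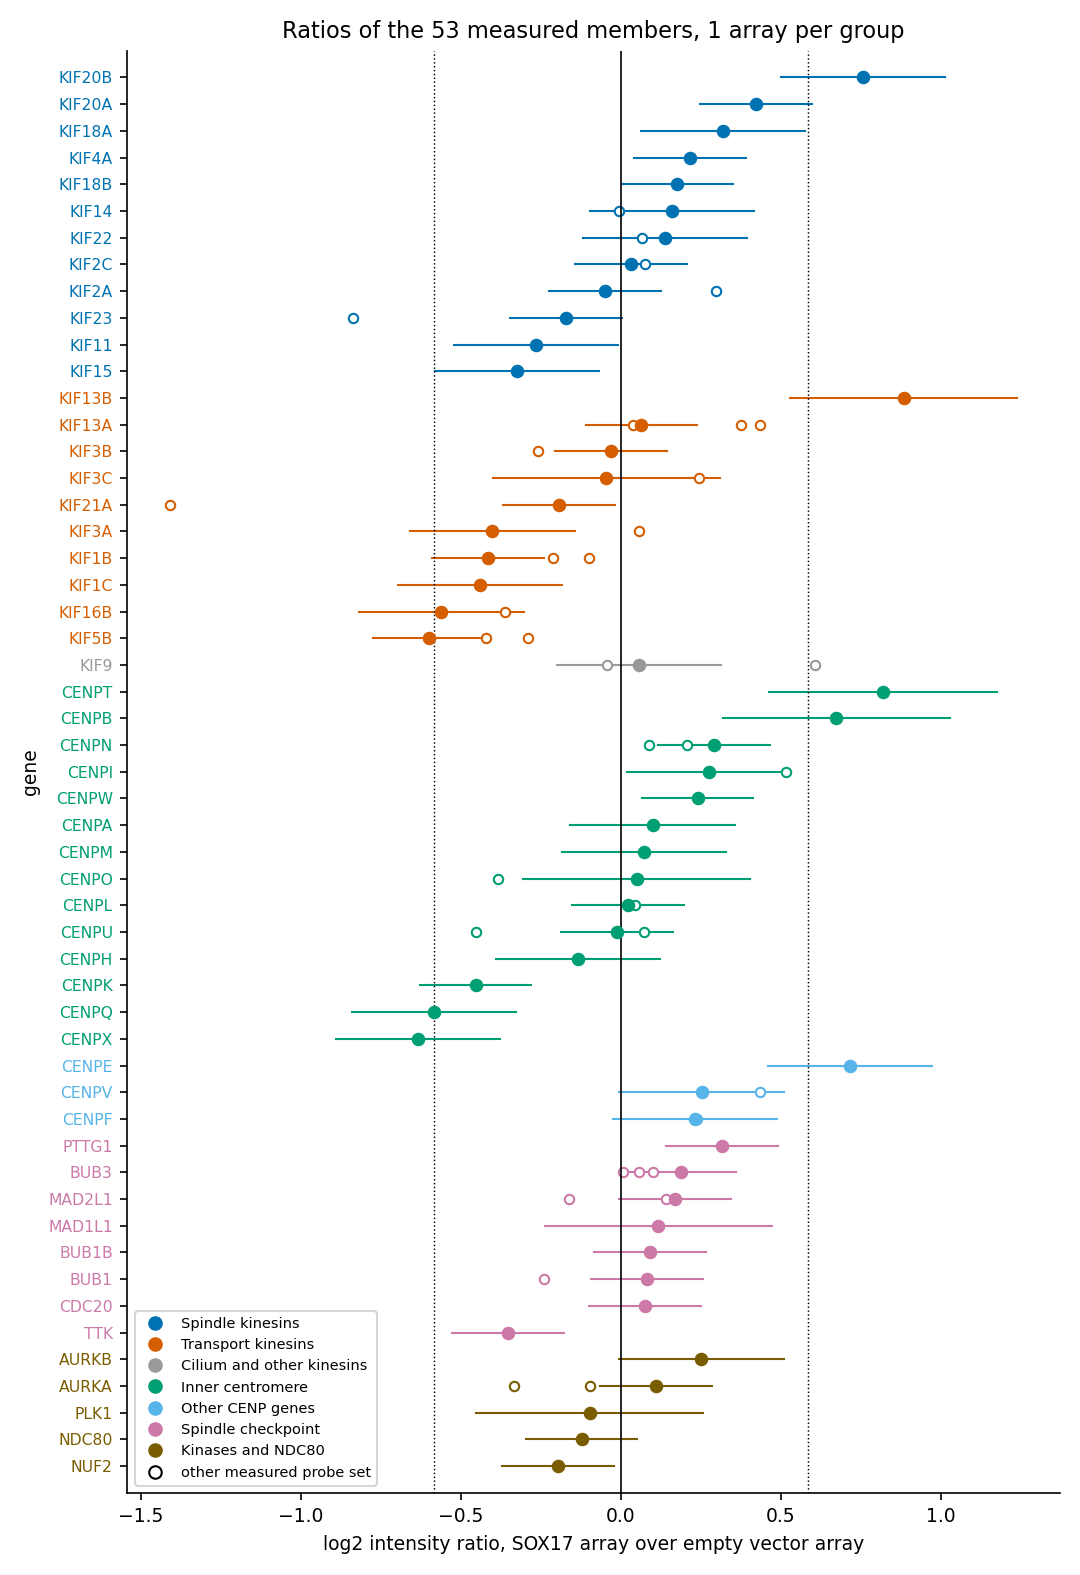
Log2 intensity ratio (x axis, SOX17 array over empty vector array) of each of the 53 measured members, ordered by role and within a role by ratio. Filled points are the representative probe set with a bar of 1 SD for its tertile of level, open points are other measured probe sets of the gene, and dotted lines mark 1.5-fold. The ratios run from -0.63 (CENPX) to 0.88 (KIF13B), and 8 of 10 transport kinesins lie left of 0.

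Kinesins of the spindle and of the midzone between separating chromosomes lay above 0 at a share near that of all measured genes. Of 13 with a probe set 12 were measured, 8 of them above 0 (66.7%, against 54.6% of all measured genes), with a median log2 ratio of 0.15. KIF20B, a kinesin needed for cytokinesis, read 697 on the SOX17 array and 413 on the empty vector array (log2 ratio 0.76, 1.69-fold). KIF20A, which carries the chromosomal passenger complex to the midzone, read 6476 on the SOX17 array and 4837 on the empty vector array (log2 ratio 0.42). KIF18A, which damps chromosome movements at metaphase, read 575 on the SOX17 array and 461 on the empty vector array (log2 ratio 0.32). The ratios of KIF20B and KIF20A exceeded 2 SD for their level, and that of KIF18A did not. KIF4A, KIF18B, KIF14, KIF22 and KIF2C lay between 0.03 and 0.22 on the log2 scale.

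The other 4 lay below 0, each within 2 SD on its representative probe set. KIF11, the plus-end motor that slides antiparallel microtubules, read 1702 on the SOX17 array and 2046 on the empty vector array (log2 ratio -0.27). KIF15, which can stand in for KIF11 in spindle assembly, read 563 on the SOX17 array and 705 on the empty vector array (log2 ratio -0.32). KIF23, a subunit of centralspindlin, had log2 ratios of -0.17 and -0.84 on its probe sets. KIF2A, a microtubule depolymerase, had log2 ratios of -0.05 and 0.30, and its relative KIF2B lay below the floor. The gene KIF4B had no probe set of its own, and whether the KIF4A probe set also reads its transcript was not tested.

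Kinesins of cargo transport were mostly lower on the SOX17 array. Of 14 with a probe set 10 were measured, and 8 of the 10 lay below 0, where 45.4% of all measured genes did. Their median log2 ratio was -0.30 (1.23-fold lower). KIF5B, the ubiquitous heavy chain of conventional kinesin, read 2706 on the SOX17 array and 4098 on the empty vector array (log2 ratio -0.60, 1.51-fold lower). Its other measured probe sets read 1516 and 357 on the SOX17 array, against 1856 and 479 on the empty vector array. All of its measured probe sets were thus dimmer on the SOX17 array, with log2 ratios of -0.60 to -0.29.

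KIF16B, a motor of early endosomes, read 667 on the SOX17 array and 984 on the empty vector array (log2 ratio -0.56), and -0.36 on its other probe set. KIF1B, which carries mitochondria and vesicles, read 1689 on the SOX17 array and 2255 on the empty vector array (log2 ratio -0.42), and its other measured probe sets had log2 ratios of -0.21 and -0.10. The representative ratios of KIF5B, KIF16B and KIF1B exceeded 2 SD for their level. KIF1C, a motor for vesicles and integrins, read 437 on the SOX17 array and 593 on the empty vector array (log2 ratio -0.44). A second KIF1C probe set was below the floor on the SOX17 array, at 91.7, and read 228 on the empty vector array, a difference of at least 2.41-fold, lower on the SOX17 array. Its remaining probe set lay below the floor on both.

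KIF21A, a regulator of microtubule growth at the cell cortex that was counted with the transport kinesins, had log2 ratios of -0.19 and -1.41. The second was the lowest of all measured probe sets of the members, at 127 on the SOX17 array and 338 on the empty vector array. Of the subunits of heterotrimeric kinesin-2, KIF3A had log2 ratios of -0.40 and 0.06, KIF3B of -0.03 and -0.26, and its alternative KIF3C of -0.05 and 0.24. KIF13A and KIF13B were the exceptions. KIF13B read 278 on the SOX17 array and 151 on the empty vector array (log2 ratio 0.88, 1.84-fold), the highest ratio of all members, on a single probe set in the lowest tertile of level. KIF13A, a motor of recycling endosomes, had 4 measured probe sets with log2 ratios of 0.04 to 0.43.

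The probe sets of 1 transport kinesin mostly shared a sign. Of 8 transport kinesins with several measured probe sets 5 lay below 0 on every one (KIF5B, KIF16B, KIF1B, KIF3B and KIF21A) and 1 above 0 on every one (KIF13A). Over all genes with several measured probe sets 25.5% lay below 0 on every one and 23.1% above. Counted by probe set, 15 of 22 for transport kinesins were below 0, against 48.9% of all measured probe sets with 1 gene, and 11 of 17 for spindle kinesins were above 0, against 51.1%. Probe sets of 1 gene share the transcript and the arrays, so they are not replicates of the transfection. Whether spindle and transport kinesins differ in their response was not tested.

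**Figure D2:**
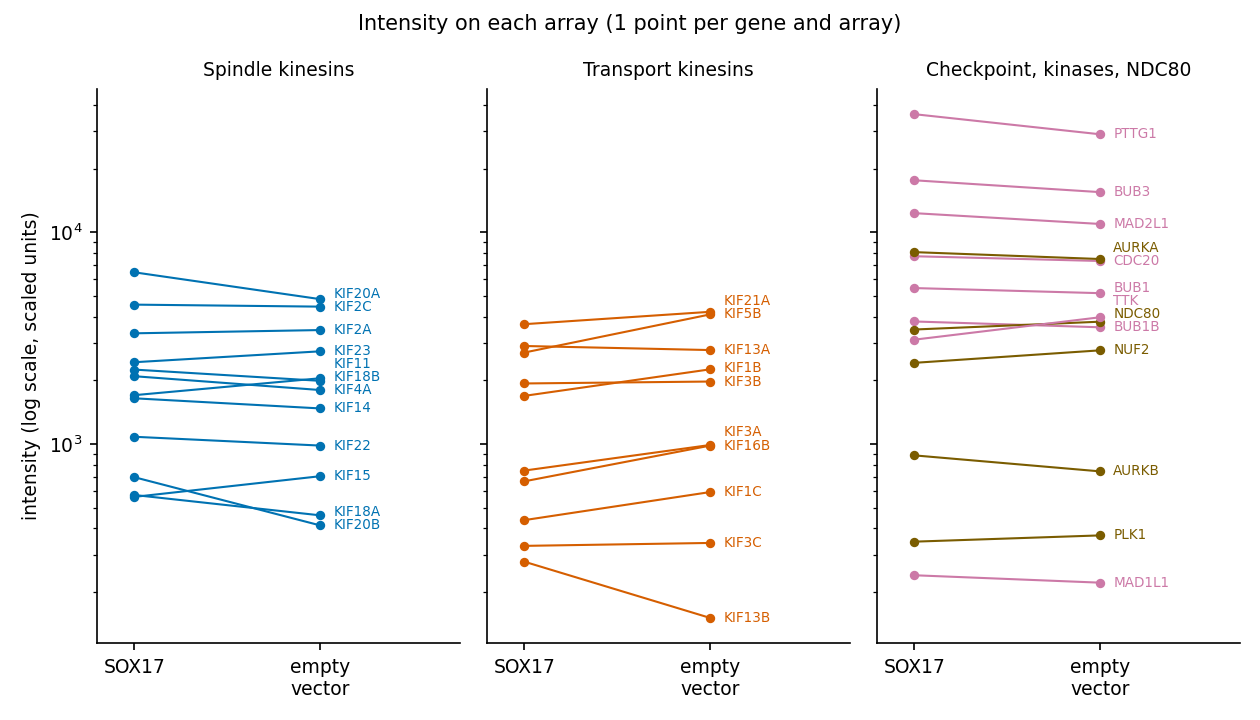
Intensity (y axis, log scale, in the authors' scaled units) on the SOX17 array (left) and the empty vector array (right) for the representative probe set of each measured spindle kinesin, transport kinesin, and checkpoint, kinase or NDC80 gene. Each line joins the 2 values of 1 gene, and only the slope of a line can be read, since probe sets differ in brightness. Lines climb to the right for 8 of 10 transport kinesins and 4 of 12 spindle kinesins.

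Most kinesins known mainly from neurons or cilia were not measured. KIF1A, KIF5A, KIF5C and KIF21B, all neuronal motors, and 10 of the 11 kinesins of cilia and other sites were not measured. These were KIF6, KIF7, KIF12, KIF17, KIF19, KIF24, KIF25, KIF26A, KIF26B and KIF27. KIF9, a kinesin of motile cilia, was the measured one, at 1341 on the SOX17 array and 1290 on the empty vector array (log2 ratio 0.06). Its measured probe sets ran from -0.04 to 0.61 on the log2 scale, and all have IDs that end in _x_at, the mark of probe sets whose probes may also match other sequences. KIF19 and KIF26A were at or above the floor on the SOX17 array only, at less than 2 times the floor, so no fold is given.

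Genes of the inner centromere went both ways. Of 15 with a probe set 14 were measured, 9 above 0 (64.3%, against 54.6% of all measured genes), with a median log2 ratio of 0.06. CENPT, which reaches from centromeric DNA to the NDC80 complex, read 189 on the SOX17 array and 107.0 on the empty vector array (log2 ratio 0.82, 1.76-fold). CENPB, which binds a sequence box in alpha satellite DNA, read 254 on the SOX17 array and 160 on the empty vector array (log2 ratio 0.67, 1.59-fold). Both rest on a single measured probe set in the lowest tertile, where 1 SD is 0.36, and the other CENPT probe set lay below the floor on both arrays.

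CENPX, a histone-fold protein that pairs with CENPS and also serves in DNA crosslink repair, read 1204 on the SOX17 array and 1868 on the empty vector array (log2 ratio -0.63, 1.55-fold lower). CENPQ, of the CENP-O group of the constitutive centromere network, read 561 on the SOX17 array and 841 on the empty vector array (log2 ratio -0.58), just short of 1.5-fold. CENPK, of the group with CENPH and CENPI, read 2611 on the SOX17 array and 3578 on the empty vector array (log2 ratio -0.45). These ratios exceeded 2 SD for their level. CENPC, the scaffold that binds the centromeric nucleosome, was at 87.0 on the SOX17 array, under the floor, and at 180 on the empty vector array.

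Genes of 1 complex lay on both sides of 0, but the representative ratios that follow were all within 2 SD of 0 for their level. CENPH and CENPI, the partners of CENPK, had log2 ratios of -0.14 and 0.28, and the second measured probe set of CENPI of 0.51. CENPU, a partner of CENPQ that docks PLK1, read 2131 on the SOX17 array and 2150.0 on the empty vector array, and its probe sets ran from -0.45 to 0.07 on the log2 scale. CENPO, also of that group, had log2 ratios of 0.05 and -0.38. CENPW, the histone-fold partner of CENPT, had a log2 ratio of 0.24. CENPN, which reads the centromeric nucleosome, was above 0 on all of its measured probe sets (0.09 to 0.29), and its partner CENPL on both of its own (0.02 and 0.04). CENPA, the histone variant that defines the centromere, read 1358 on the SOX17 array and 1269 on the empty vector array (log2 ratio 0.10), and CENPM had a log2 ratio of 0.07.

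The 3 other measured CENP genes lay above 0, CENPE farthest. CENPE, a kinesin that brings chromosomes to the spindle equator, read 932 on the SOX17 array and 568 on the empty vector array (log2 ratio 0.71, 1.64-fold), past 2 SD for its level and on a single probe set. CENPF, a coiled-coil protein of the fibrous corona, read 1444 on the SOX17 array and 1230.0 on the empty vector array. Its measured probe sets had log2 ratios of 0.23 and 0.24, both within 1 SD. CENPV, which takes part in centromere organisation, read 1624 on the SOX17 array and 1364 on the empty vector array (log2 ratio 0.25), with 0.44 on its other measured probe set. Over all measured genes, 54.6% lay above 0.

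Of the checkpoint genes, TTK was the 1 with a ratio below 0. All 8 genes of the checkpoint and its targets were measured, 7 above 0 (87.5%, against 54.6% of all measured genes), with a median log2 ratio of 0.10, and none was 1.5-fold higher or lower. TTK, the kinase at the top of the checkpoint, read 3113 on the SOX17 array and 3973 on the empty vector array (log2 ratio -0.35, 1.28-fold lower), 2 SD for its level, on 1 probe set. PTTG1, or securin, the inhibitor of separase, read 36169 on the SOX17 array and 29059 on the empty vector array (log2 ratio 0.32), within 2 SD. Its probe set has an ID that ends in _x_at.

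The other checkpoint genes lay near 0. BUB3, which brings BUB1 and BUB1B to kinetochores, read 17623 on the SOX17 array and 15491 on the empty vector array, and its 4 measured probe sets had log2 ratios of 0.01 to 0.19. MAD2L1, which seizes CDC20, read 12325 on the SOX17 array and 10957 on the empty vector array (log2 ratio 0.17), with -0.16 and 0.14 on its other probe sets. MAD1L1, its anchor at unattached kinetochores, read 240.0 on the SOX17 array and 221 on the empty vector array (log2 ratio 0.12).

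The kinase BUB1 read 5456 on the SOX17 array and 5161 on the empty vector array (log2 ratio 0.08), with -0.24 on its other measured probe set. BUB1B, part of the checkpoint complex that inhibits anaphase, read 3794 on the SOX17 array and 3561 on the empty vector array (log2 ratio 0.09). CDC20, the protein that this complex inhibits, read 7714 on the SOX17 array and 7325 on the empty vector array (log2 ratio 0.07). The ratios of BUB1, BUB1B, CDC20, MAD1L1 and MAD2L1 were all within 1 SD of 0.

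AURKA, AURKB, PLK1, NDC80 and NUF2 had representative ratios within 2 SD of 0, and 2 of these 5 lay above 0, against 54.6% of all measured genes. AURKB, the kinase of the chromosomal passenger complex, read 884 on the SOX17 array and 743 on the empty vector array (log2 ratio 0.25). AURKA, the kinase of spindle poles, read 8066 on the SOX17 array and 7483 on the empty vector array (log2 ratio 0.11), but its other probe sets had log2 ratios of -0.10 and -0.33, so its direction depends on the probe set. PLK1, which acts from centrosome maturation to cytokinesis, read 346 on the SOX17 array and 370.3 on the empty vector array (log2 ratio -0.10).

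NDC80, the subunit that binds microtubules, read 3476 on the SOX17 array and 3786 on the empty vector array (log2 ratio -0.12). NUF2, its partner, read 2419 on the SOX17 array and 2772 on the empty vector array (log2 ratio -0.20). SPC24 and SPC25, the subunits at the other end of the same complex and not members here, read 1007 and 3960 on the SOX17 array, against 699 and 2667 on the empty vector array (log2 ratios 0.53 and 0.57). NDC80 and NUF2 lay at only -0.71 and -1.12 SD for their level, and SPC24 and SPC25 are named as the highest ratios on a list of other mitosis genes. Whether the 2 pairs of subunits differ was not tested.

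**Figure D3:**
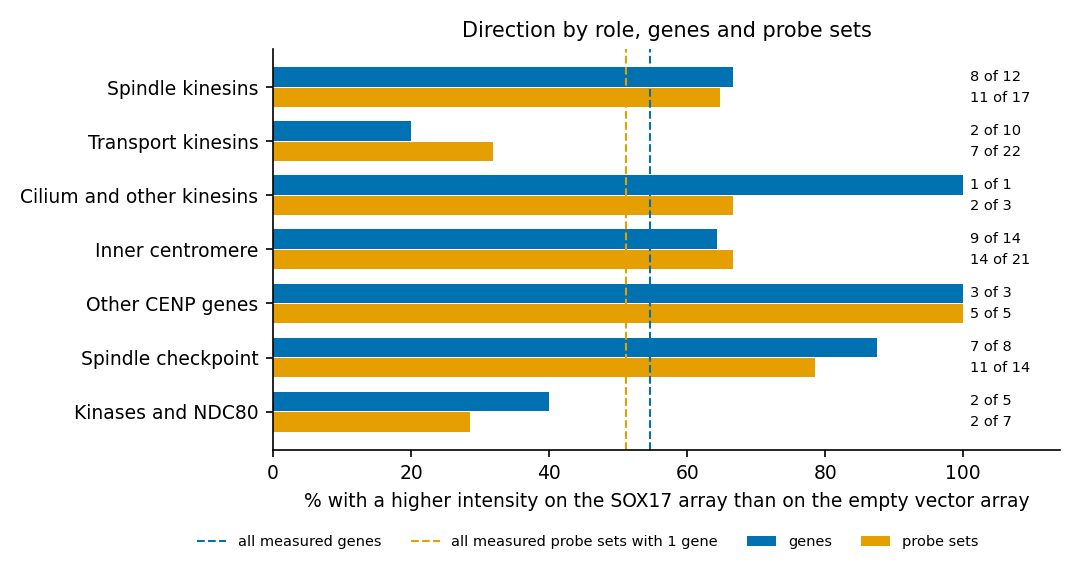
Share of measured genes (upper bar) and of measured probe sets (lower bar) that read higher with SOX17 than with the empty vector, by role, with the counts at the right. Dashed lines mark the share over all measured genes (54.6%) and over all measured probe sets with 1 gene (51.1%). Transport kinesins (2 of 10 genes) and the kinases with NDC80 and NUF2 (2 of 5) lie below the lines.

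Other genes of mitosis had a median ratio and a share above 0 near those of the members, but fewer large ratios. Of 64 on a list of cyclins, kinetochore, cohesin, condensin and cytokinesis genes 61 were measured, 37 above 0 (60.7%, against 54.6% of all measured genes), with a median log2 ratio of 0.08. None was 1.5-fold higher or lower, where 3.77% and 3.2% of all measured genes and 9.43% and 3.77% of the members were. At 2 SD or more for their level 3 lay above 0 (4.92%, against 4.51% of all measured genes and 9.43% of the members). Below 0 at that size lay 4 (6.56%, against 5.36% of all measured genes and 13.2% of the members). SPC25 and SPC24 had the highest ratios. HJURP, the chaperone that deposits CENPA, read 3347 on the SOX17 array and 2459 on the empty vector array (log2 ratio 0.44). At the low end, ECT2, which activates RhoA for cytokinesis, had log2 ratios of -0.52 and -0.58 on its probe sets. FBXO5, an inhibitor of the anaphase-promoting complex, had log2 ratios of -0.47 and -0.41, and the transcription factor MYBL2, which acts with the MuvB core on late cell cycle promoters, had -0.44.

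The promoters of the members were searched for letters known from late cell cycle genes. The choice of members used names and not sequences, but it took in many genes of that kind. The shares below are thus not independent of the choice. Late cell cycle genes are known for the cell cycle genes homology region (CHR), with the letters TTTGAA or TTCGAA, on which the DREAM and MYB-MuvB complexes sit, and for CCAAT boxes, bound by NF-Y, a short way upstream. RefSeq promoters of build GRCh38.p14, from 250 bases before to 50 after the first listed start, were at hand for 46 of the 53 measured members and for 8345 of all measured genes. Searched on either strand, TTTGAA or TTCGAA stood in 47.8% of the members' promoters and in 11.6% of those of all measured genes (16.6% of all 27305 promoters). Within 50 bases on either side of the start it stood in 41.3% of the members' promoters, against 3.43% over all measured genes. CCAAT stood in 56.5% of the members' promoters, against 37.7% over all measured genes (35.7% of all promoters).

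The share with CHR letters differed by role. Of 12 spindle kinesins 9 had them, of 6 checkpoint genes 4, and of 4 kinase or NDC80 genes 3, while of 9 transport kinesins 1 had them, KIF5B. The match in KIF5B begins 140 bases upstream of the start, outside the 50 bases in which 8 of the 12 spindle kinesins had a match. KIF20B had 2 matches just downstream of its start, while no such letters were in these windows of CENPE and KIF20A. The 22 measured members with CHR letters in the whole window had a median log2 ratio of 0.09 (15 above 0), and the 24 without them a median of 0.01 (12 above 0). CHR and CCAAT letters both stood in the 250 upstream bases of 9 of the 46 measured members with a promoter (19.6%, against 4.24% over all measured genes). Those 9 had a median log2 ratio of 0.07 (5 above 0), and the other 37 a median of 0.06 (22 above 0). Over all measured genes 54.6% lay above 0, with a median log2 ratio of 0.03. The 24 without CHR letters hold every measured transport kinesin with a promoter here except KIF5B. Whether the ratios differ with these letters was not tested. A match of letters is a description and not a shown binding site.

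The 250 bases upstream of the start are printed for 4 of those 9, the ones with the largest ratios in either direction, to set KIF5B beside 3 spindle kinesins. Capitals mark TTTGAA or TTCGAA and CCAAT, each read on either strand (TTCAAA and ATTGG on the other), and none of them overlap. The windows are chr10:32056426-32056675 on the minus strand for KIF5B, chr11:28108157-28108406 on the minus strand for KIF18A, chr10:92592880-92593129 on the plus strand for KIF11 and chrX:70289854-70290103 on the plus strand for KIF4A.
KIF5B: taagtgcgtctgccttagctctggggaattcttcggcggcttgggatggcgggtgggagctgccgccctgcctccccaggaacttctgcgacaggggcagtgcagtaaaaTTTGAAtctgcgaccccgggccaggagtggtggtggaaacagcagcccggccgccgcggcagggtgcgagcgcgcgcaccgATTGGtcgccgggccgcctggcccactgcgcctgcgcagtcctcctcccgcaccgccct
KIF18A: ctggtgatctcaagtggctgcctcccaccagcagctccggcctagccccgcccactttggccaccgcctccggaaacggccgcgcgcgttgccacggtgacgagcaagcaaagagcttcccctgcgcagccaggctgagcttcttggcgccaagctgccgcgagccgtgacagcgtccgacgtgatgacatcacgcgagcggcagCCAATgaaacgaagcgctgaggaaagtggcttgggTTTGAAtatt
KIF11: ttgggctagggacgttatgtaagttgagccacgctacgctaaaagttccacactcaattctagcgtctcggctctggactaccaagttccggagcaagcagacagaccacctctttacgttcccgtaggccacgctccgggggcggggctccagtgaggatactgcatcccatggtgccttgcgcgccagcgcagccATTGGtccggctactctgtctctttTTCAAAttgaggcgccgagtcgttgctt
KIF4A: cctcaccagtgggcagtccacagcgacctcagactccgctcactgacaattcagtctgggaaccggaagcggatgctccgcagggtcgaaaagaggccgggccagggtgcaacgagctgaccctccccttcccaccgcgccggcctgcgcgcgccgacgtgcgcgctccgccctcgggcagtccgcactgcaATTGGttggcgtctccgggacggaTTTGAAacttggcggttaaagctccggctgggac

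In KIF18A, KIF11 and KIF4A the CHR letters begin 10, 28 and 34 bases upstream of the start, and the CCAAT letters 45, 53 and 58 bases upstream, so the pair lies close together next to the start. In KIF5B the order is turned, with the CHR letters 140 and the CCAAT letters 59 bases upstream. Of these 4 genes KIF18A and KIF4A were higher on the SOX17 array (log2 ratios 0.32 and 0.22), and KIF11 and KIF5B were lower (-0.27 and -0.60).

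**Figure D4:**
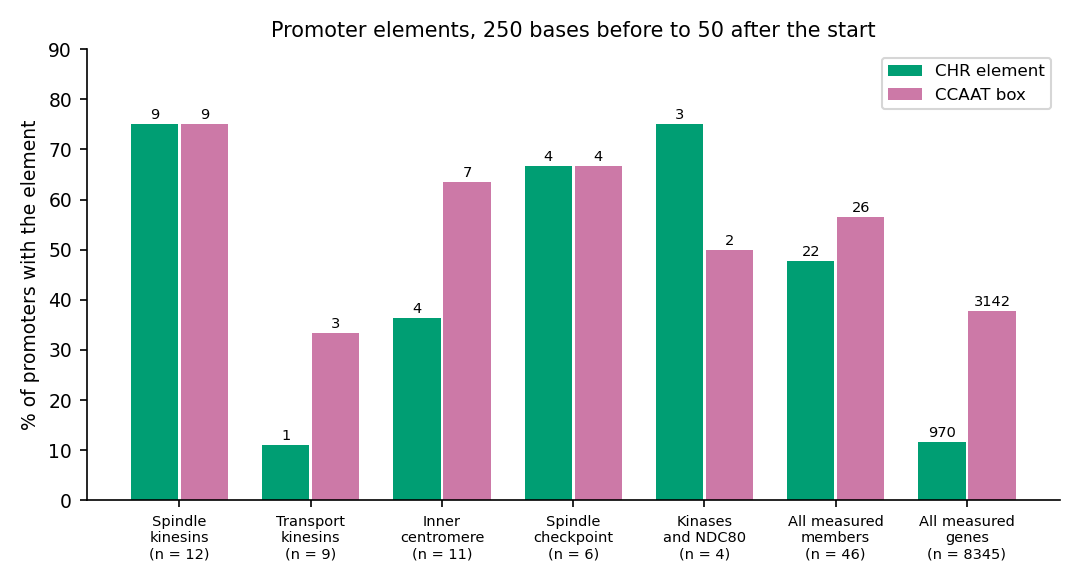
Share of promoters (y axis) with the CHR letters or a CCAAT box in the window from 250 bases before to 50 after the start, for measured members by role, all measured members and all measured genes. Numbers over the bars are counts of promoters. The CHR letters stand in 9 of 12 promoters of spindle kinesins and 1 of 9 of transport kinesins, against 11.6% for all measured genes.

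Set against the error at their level, 12 of the 53 members lay 2 SD or more from 0, a size rule chosen after the data were seen. The 5 above were KIF20B, CENPE, KIF13B, CENPT and KIF20A (9.43%, against 4.51% of all measured genes). The 7 below were KIF5B, CENPK, CENPX, KIF1B, CENPQ, KIF16B and TTK (13.2%, against 5.36% of all measured genes). Of these 12, 9 rest on 1 measured probe set, and the 3 with several, KIF5B, KIF16B and KIF1B, were below 0 on each. Another 26 members (49.1%, against 60.6% of all measured genes) lay within 1 SD of 0.

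**Figure D5:**
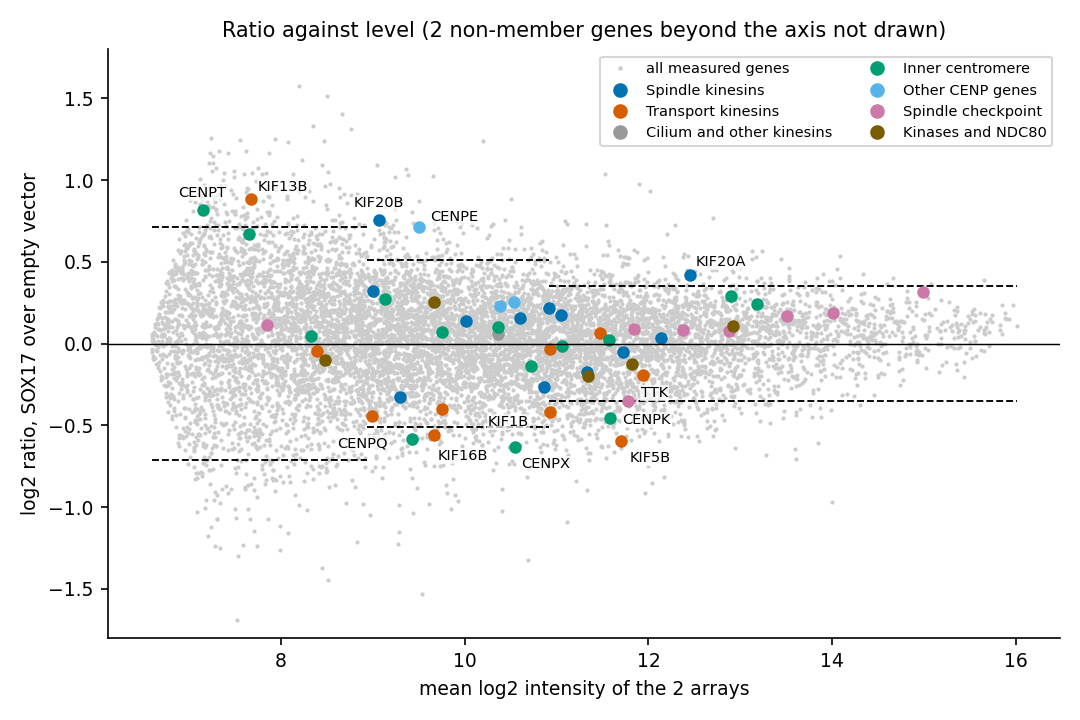
Log2 ratio (y axis, SOX17 over empty vector) against the mean log2 intensity of the 2 arrays (x axis) for all measured genes (grey) and the measured members (coloured by role). Dashed lines mark 2 SD of 1 ratio in each tertile of level. Named are the 12 members at or past the lines, 5 above and 7 below.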

How the data were processed

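The authors deposited linear intensities, 1 for each probe set on each array. They came from GCOS, as the submitters' processing notes name it, with neither algorithm nor version nor detection calls given in the sources used here. When 2% of the values were trimmed at either end, the mean of each array was 500.1, so no further scaling was done. Control probe sets (62 of 54675) were left out, and 3 probe sets paired with a member and another gene were not used. The floor was the 60th percentile of the other values of both arrays pooled. No genome build belongs to the values, and GEO's annotation of the platform gave the genes; all 69 symbols matched current RefSeq symbols.

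Intensities were written out for the 13 genes chosen by name, members past 1.5-fold, the 4 largest absolute ratios of each role and members whose probe sets lay 0.5 or more apart across 0; the list of other mitosis genes gave 6 names. Other members are named for completeness or for their probe sets, after their values were seen. The members and lists were chosen with earlier results of these data known. The design had 1 array per group, and this number limits the precision of every value. Python 3.11.15, numpy 2.4.6, pandas 2.3.3 and statsmodels 0.14.6 were used, and the steps were tested on simulated data.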

Additional observations from a re-analysis of the deposited data

How the results depend on the processing

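No paired analysis was possible because each group has 1 array, and for the same reason no replicate could be left out. In all, 8 other settings were tried: centring, quantile normalization, loess (span 0.4), no floor or one at the 50th or 75th percentile, averaging a gene's probe sets, and dropping those with IDs in _x_at or _s_at. The median of the members stayed between 0.05 and 0.10, that of spindle kinesins between 0.11 and 0.17 and that of transport kinesins between -0.40 and -0.12. Of 410 recomputed ratios of single members 403 moved by less than 1 SD. Many of the 410 could not move, so this count does not measure stability. A change of floor leaves each ratio as it was, and centring shifts all ratios alike. Averaging cannot move the 28 members with 1 measured probe set. The sign turned in 12 of the 410, all of them of 7 members near 0: AURKA (-0.33 and -0.11), KIF2A (0.12 and 0.30), KIF3C (0.10 and 0.24), CENPU (0.01 to 0.07), CENPO (-0.17), BUB1 (-0.08) and KIF3B (0.0035).

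Counts of members depended most on the floor. With no floor 13 of 69 members were 1.5-fold higher, 5 were 2-fold higher and 1 was 2-fold lower, but the SD of 1 ratio was then 1.14. The share of all genes past these sizes is not given for the changed settings, so the counts there describe the members alone. With a floor at the 75th percentile 2 were 1.5-fold higher, since CENPB, CENPT and KIF13B were no longer measured. With a floor at the 50th percentile 1 was 2-fold lower (CENPC), and after quantile normalization 1 was 1.5-fold lower (CENPX, without KIF5B). With the mean over probe sets the median of the other mitosis genes was 0.038. The rule of 2 SD, added after the data were seen, gave 7 lower members in place of 2. The SD could not be recomputed with the mean over probe sets, which leaves 1 value per gene. Probe sets below the floor limit what can be said of the 16 members not measured.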
